A study of Mus musculus with 6 samples.

Results

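Immunoglobulin variable (V) gene segments were followed in RNA-seq counts of mouse bone marrow, library by library. The members were the rows whose gene symbol begins with Ighv, Igkv or Iglv and whose counts, summed over the 6 libraries, came to 20 or more. They numbered 180 of 348 V segment rows and of 45706 rows in all, with 91 heavy chain, 86 kappa and 3 lambda segments. The summed counts that chose the members are thus not a result. The rule leans on the controls: 168 members had 20 or more counts in the controls alone, 128 in the conditioned libraries alone, and 12 in neither group alone. No member was brought in by the conditioned libraries only. Just inside the threshold, Ighv1-49 and Ighv7-4 had 20 counts each, and just outside it Ighv1-62-2 and Igkv2-116 had 19.

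The study asked how tumour cells of a mouse model of clear cell renal cell carcinoma (ccRCC), a kidney cancer, act on myeloid and T cells. The control group holds 2 libraries of marrow in control medium (replicates 1 and 2). The conditioned group holds 4 libraries of marrow in medium taken from VpR ccRCC cells, 1 each for VpR83, VpR99, VpR126 and VpR2020, so no line could be tested against another. The column headers mark VpR83 as Ctrl, VpR99 as T1 and VpR126 as LT2, tags that no source read here explains. No source read here states mouse strain, age, genotype or culture time. The labels name control medium for the 2 controls, but the series design calls its comparator fresh marrow, so that time in culture cannot be told apart from the medium. Nothing says whether libraries came from separate animals, and p-values measure only the spread between these libraries.

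V segments are the parts of antibody genes that are joined to D and J segments, or to J segments alone, while a B cell develops in the marrow. Each B cell keeps 1 productive heavy chain rearrangement and usually 1 light chain rearrangement, kappa or lambda, and its transcripts carry the chosen V segment in front of a constant region. The spread of reads over V segments therefore describes which B lineage cells contribute RNA, and plasma cells, which secrete antibody, contribute far more of it per cell than other B cells. In bulk libraries, fewer B lineage cells and less antibody RNA per cell cannot be told apart.

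The heavy chain members lie on chromosome 12, from 113578504 to 116000461 (GRCm38), all on the minus strand. Kappa members lie on chromosome 6, from 67609713 to 70704177, with 33 on the plus and 53 on the minus strand. Lambda members lie on chromosome 16, from 19085017 to 19260859, on the minus strand. By the GENCODE M21 annotation, 173 members are functional V genes and 7 are V pseudogenes. Their exonic lengths span 329 to 480 bases (median 359), and levels are compared between segments as read counts, not per length.

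The last 120 bases of the V exon are shown for the segments on which the results turn: the heavy segment with most counts in 3 conditioned libraries, the top heavy segment of control replicate 1, the pair with the largest falls, and a pair of similar kappa segments. The sequences come from the GENCODE M21 transcripts (GRCm38) and run 5′ to 3′ on the coding strand. Capitals mark the codon of the conserved cysteine that ends the framework before the third complementarity-determining region, the part of the antigen-binding site where V joins D or J.
Ighv1-26: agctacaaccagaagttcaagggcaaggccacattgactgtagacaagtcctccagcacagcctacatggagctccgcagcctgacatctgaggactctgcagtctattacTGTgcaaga
Ighv8-8: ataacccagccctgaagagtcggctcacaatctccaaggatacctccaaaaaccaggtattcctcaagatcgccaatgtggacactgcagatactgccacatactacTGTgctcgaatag
Ighv11-2: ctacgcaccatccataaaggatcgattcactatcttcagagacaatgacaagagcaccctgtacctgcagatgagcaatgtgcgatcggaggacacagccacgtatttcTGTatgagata
Igkv14-126: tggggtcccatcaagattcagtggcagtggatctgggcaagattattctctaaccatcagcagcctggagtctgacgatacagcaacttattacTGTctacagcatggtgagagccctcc
Igkv1-110: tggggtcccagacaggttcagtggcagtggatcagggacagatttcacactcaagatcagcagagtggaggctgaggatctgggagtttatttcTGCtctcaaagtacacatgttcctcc
Igkv1-117: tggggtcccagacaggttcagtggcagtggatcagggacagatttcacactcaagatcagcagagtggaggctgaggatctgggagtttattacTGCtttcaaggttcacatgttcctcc
The windows lie at chr12:114788372-114788491 (Ighv1-26), chr12:115294062-115294181 (Ighv8-8) and chr12:114048241-114048360 (Ighv11-2), all on the minus strand, and at chr6:67896523-67896642 (Igkv14-126), chr6:68271148-68271267 (Igkv1-110) and chr6:68121708-68121827 (Igkv1-117), on the plus strand.

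V segment reads were lower in every conditioned library than in both controls, in each class. Total counts were 18629708 to 28055913 in 5 libraries and 129120559 in VpR99, and levels are given as CPM, counts scaled to library size with the TMM factors of edgeR. Summed over the heavy members, the level was 319.6 and 254.4 CPM in control replicates 1 and 2. It was 4.76 CPM under VpR83, 27.5 under VpR99, 45.6 under VpR126 and 11.5 under VpR2020 medium. Kappa members summed to 429.6 and 410.1 CPM in the controls and to 4.54, 24.1, 44.6 and 8.96 CPM in the same order of lines. Lambda members summed to 89.2 and 67.1 CPM in the controls and to 0.366, 3.40, 9.97 and 1.33 CPM. The order of the lines was the same in all 3 classes, VpR126 highest, then VpR99, VpR2020 and VpR83.

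**Figure D1:**
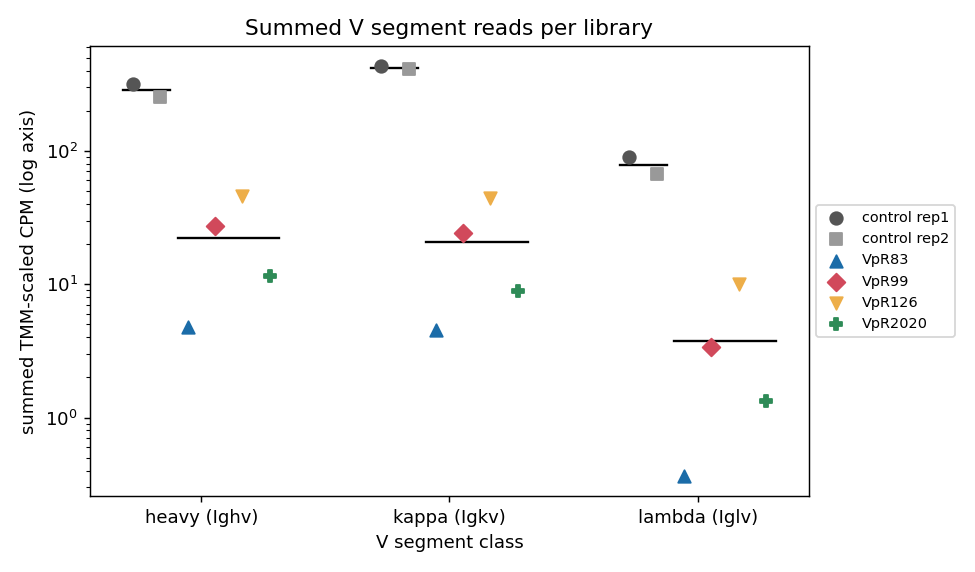
Summed TMM-scaled CPM (log axis) of heavy, kappa and lambda V segments, with 1 point for each library and a black line at each group mean. All 4 conditioned libraries lie below both controls in each class, and VpR83 is the lowest and VpR126 the highest of the 4.

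The control mean was 287 ± 46.1 CPM for heavy segments (SD, n = 2) against 22.3 ± 18.2 in conditioned medium (SD, n = 4), a 12.9-fold difference. For kappa it was 419.9 ± 13.8 against 20.5 ± 18.1 CPM (20.4-fold), and for lambda 78.2 ± 15.7 against 3.76 ± 4.33 CPM (20.8-fold). No test was made of these sums, because the members were chosen with results of these data known. The folds span a wide range over the lines: all members together were 7.83-fold lower than the control mean under VpR126 medium, 14.3-fold under VpR99, 36.1-fold under VpR2020 and 81.2-fold under VpR83. Without VpR126 the group differences were 19.7-fold (heavy), 33.5-fold (kappa) and 46.1-fold (lambda).

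Single segments fell almost throughout, and none rose. Of the 180 members, 162 had enough counts to be tested, and 155 of them were called lower and 0 higher by edgeR's quasi-likelihood test at a Benjamini-Hochberg adjusted p below 0.05, adjusted over all 15141 genes tested. None was called higher by DESeq2 either, or had a positive fold change in any alternative fit, so that none was higher at an unadjusted p under 0.05. Among all genes tested, 19.7% were called lower and 22.5% higher. The count of members is not evidence of its own, since 121 of the 162 passed the filter on low counts only through the controls. All 41 members that passed it in 2 or more conditioned libraries were called lower, with a median log2 fold change of -3.80. Without control replicate 1, 48 members were called lower, and without control replicate 2, 60. With 1 control left, its spread is taken from that of the conditioned group.

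The median log2 fold change was -3.44 over the 81 heavy segments tested, -4.04 over the 78 kappa segments and -4.50 over the 3 lambda segments, against -0.01 over all genes. The tested heavy segments ranged from -6.58 to -1.70 and the kappa segments from -7.28 to -1.88. All 78 kappa segments and all 3 lambda segments tested were called lower, as were 74 heavy segments. The 7 that were not called are all heavy: Ighv14-3, Ighv3-1, Ighv13-2, Ighv5-12, Ighv5-2, Ighv1-36 and Ighv9-2, with log2 fold changes of -3.01 to -1.70 and adjusted p of 0.050 to 0.19. All 4 conditioned libraries lay below both controls in 178 of the 180 members, and in 33.3% of all genes tested. The 180 include 18 members that were not tested, and the count rule leans on the controls, so this count is a description only. The exceptions, Ighv3-1 and Ighv9-4, had only 8 and 5 counts in control replicate 2.

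Ighv1-26, of the large Ighv1 family that earlier work calls J558, had 714 and 413 counts in the controls and the most of any heavy segment in 3 conditioned libraries. Its levels were 23.8 and 19.4 CPM in the controls and 0.439, 1.54, 2.20 and 0.719 CPM under VpR83, VpR99, VpR126 and VpR2020 media. Ighv1-26 fell by 4.12 ± 0.58 on the log2 scale (edgeR adjusted p = 0.0031; each ± on this scale is an SE derived from the F statistic). Ighv1-81, also of that family and the top heavy segment of control replicate 2, had 20.5 and 22.1 CPM in the controls and 0.11, 0.454, 1.35 and 0.221 CPM in the lines. It fell by 5.32 ± 0.80 (edgeR adjusted p = 0.0037), with a log2 change of -6.11 without VpR126. In CPM the controls were close on these 2 segments and lay far above every conditioned library. As a share of heavy counts Ighv1-81 was higher in control replicate 2 (8.68%) than in replicate 1 (6.42%), by more than counting error.

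Ighv8-8 differed between the controls, with 886 counts (29.5 CPM) in replicate 1 and 127 counts (5.97 CPM) in replicate 2. The conditioned libraries held 0.0732, 0.77, 2.24 and 0.443 CPM, so the groups did not overlap. It fell by 4.34 ± 1.07 (edgeR adjusted p = 0.020), but its log2 fold change was -2.77 without control replicate 1, where it was not called (adjusted p = 0.18), -5.05 without control replicate 2 and -5.20 without VpR126. Ighv8-8 was not called without VpR2020 or without a low-count filter either (adjusted p = 0.051 and 0.067, range over all alternatives 0.00014 to 0.18). Ighv3-5 rested still more on 1 control, with 107 counts in replicate 1 and 8 in replicate 2, and 4 counts in the conditioned libraries, all under VpR99. It fell by 6.57 ± 1.13 (edgeR adjusted p = 0.0060), with a log2 fold change of -7.44 without control replicate 2. Without control replicate 1, the larger of its controls, Ighv3-5 was not among the genes tested. Without VpR99 no conditioned count is left, so the fitted -8.59 is not a measured size.

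Among the heavy segments named by rule for their level or fall, Ighv9-3 and Ighv1-82 had the smallest changes. Ighv9-3, the top heavy segment under VpR126 medium, had 8.96 and 5.45 CPM in the controls and 0.293, 1.31, 2.45 and 0.277 CPM in the lines, and fell by 2.72 ± 0.85 (edgeR adjusted p = 0.042). It was not called without any 1 library other than VpR126 (adjusted p = 0.060 to 0.20), nor without a low-count filter (0.057, range 0.0047 to 0.20), and its log2 change was -3.36 without VpR126. Ighv1-82 had 5.83 and 4.46 CPM in the controls and 0.0366, 0.859, 1.23 and 0.609 CPM in the lines. It fell by 2.90 ± 0.86 (edgeR adjusted p = 0.035), and was not called without control replicate 1, control replicate 2, VpR99 or VpR2020 (adjusted p = 0.16, 0.12, 0.059 and 0.081, range 0.0036 to 0.16). Ighv3-6 and Ighv1-9 fell by 3.77 ± 0.75 and 3.72 ± 0.85, and neither was called without control replicate 1 (adjusted p = 0.071, range 5.0e-06 to 0.071, and 0.12, range 8.0e-05 to 0.12). The log2 fold change of Ighv1-9 was then -2.87, and -4.55 without VpR126.

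Among kappa segments, Igkv1-110 had the most counts in both controls, 946 and 1036. Its levels were 31.5 and 48.7 CPM there and 0.183, 1.26, 1.52 and 0.553 CPM in the lines, and it fell by 5.46 ± 0.67 (edgeR adjusted p = 0.0020). Its near relative Igkv1-117 was the top kappa segment under VpR126 and VpR2020 media, and Igkv1-135 that under VpR83 and VpR99. Igkv1-117 had 24.2 and 27.6 CPM in the controls and 0.146, 1.61, 3.46 and 0.885 CPM in the lines, a log2 change of -4.08 ± 0.88 (edgeR adjusted p = 0.012). Igkv1-135 had 17.5 and 15.6 CPM and 0.549, 1.74, 3.38 and 0.443 CPM, a log2 change of -3.42 ± 0.75 (edgeR adjusted p = 0.013). All 3 belong to the Igkv1 family, and whether their falls differ was not tested. Neither Igkv1-117 nor Igkv1-135 was called without control replicate 1 (adjusted p = 0.063 and 0.075) or control replicate 2 (0.069 and 0.066), with ranges of 1.8e-05 to 0.069 and 3.4e-05 to 0.075 over the alternatives. Their log2 fold changes were -4.76 and -4.04 without VpR126.

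Igkv15-103 and Igkv6-15 fell further than the kappa median. Igkv15-103 had 18.63 and 18.33 CPM in the controls, 0 counts under VpR83 and 0.3, 0.845 and 0.166 CPM under the other media. It fell by 5.82 ± 0.95 (edgeR adjusted p = 0.0050) with a log2 change of -6.55 without VpR126. Igkv6-15 had 28.5 and 11.4 CPM in the controls and 0.11, 0.478, 1.61 and 0.166 CPM in the lines. It fell by 5.09 ± 0.95 (edgeR adjusted p = 0.0077), with log2 fold changes of -6.02 without VpR126 and -4.28 without control replicate 1, where it was not called (adjusted p = 0.063, range 3.7e-07 to 0.063). Igkv10-96 had a log2 change of -4.29 ± 0.66 and Igkv17-127 one of -2.92 ± 0.83, both called lower. Igkv17-127 was not called without control replicate 1, control replicate 2, VpR99 or VpR2020 (adjusted p = 0.12, 0.12, 0.061 and 0.065, range 0.0019 to 0.12) and had a log2 change of -3.70 without VpR126.

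**Figure D2:**
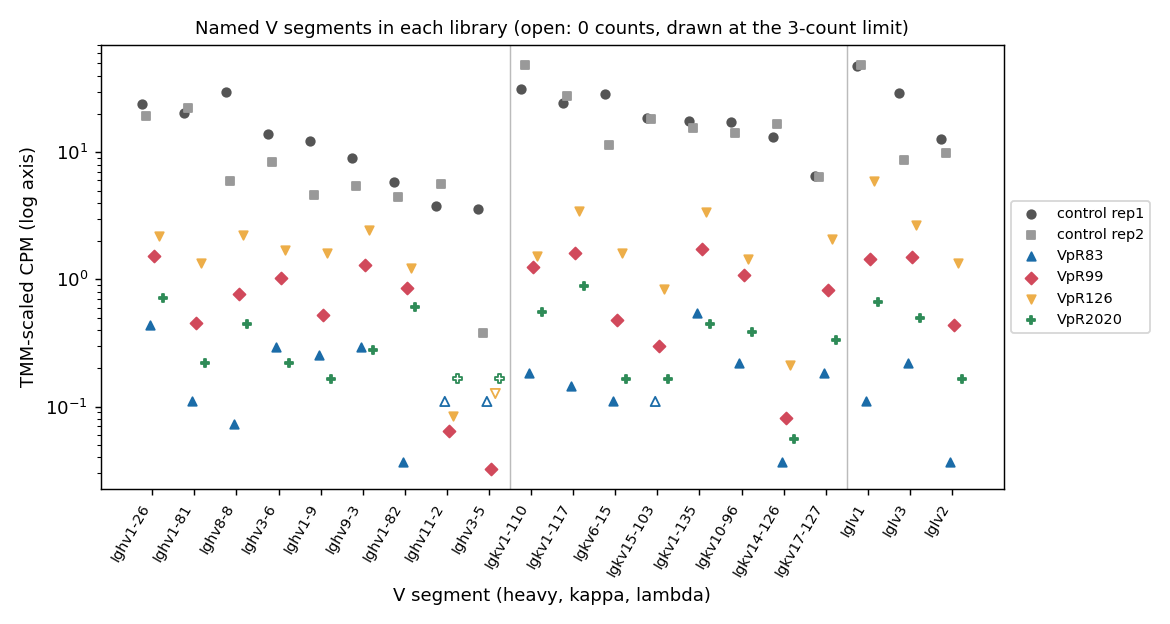
TMM-scaled CPM (log axis) of 20 V segments chosen by rule, with 1 point for each library, ordered within heavy, kappa and lambda by control mean. Open symbols are 0 counts, drawn at the level of 3 counts in that library. Every control point lies above the conditioned points of its segment, and Ighv11-2, Ighv3-5 and Igkv14-126 lie lowest in conditioned medium.

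The pair Ighv11-2 and Igkv14-126 had the largest falls of their classes. Together these segments encode a well-known antibody against phosphatidylcholine that is typical of B-1 cells, a B cell lineage that arises early in life and makes natural antibody. Ighv11-2 had 114 and 120 counts in the controls (3.80 and 5.64 CPM). It had 8 counts under VpR99 (0.0649 CPM), 2 under VpR126 (0.0845 CPM) and 0 under VpR83 and VpR2020, where 3 counts would correspond to 0.11 and 0.166 CPM. Igkv14-126 had 394 and 354 counts in the controls (13.1 and 16.6 CPM) and 1, 10, 5 and 1 counts in the lines (0.0366, 0.0811, 0.211 and 0.0553 CPM). Ighv11-2 fell by 6.58 ± 0.74 (edgeR adjusted p = 0.0015). Igkv14-126 fell by 7.28 ± 0.53 (edgeR adjusted p = 0.00051). Both calls held under every alternative in which the segments were tested, with adjusted p of at most 0.020 and 0.010.

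As a share of its class, Ighv11-2 took 1.19% and 2.22% of heavy counts in the controls, but 0.236% under VpR99 (exact binomial 95% interval 0.102% to 0.464%) and 0.185% under VpR126 (0.0224% to 0.667%). Igkv14-126 took 3.06% and 4.06% of kappa counts in the controls, 0.337% under VpR99 (0.162% to 0.618%) and 0.473% under VpR126 (0.154% to 1.10%). These intervals lie below those of both controls, but the pair was named for its large falls, so that lower shares of their classes follow from that choice and are a description only. Under VpR83 medium the classes held too few counts to tell these shares from those of the controls. Under VpR2020 medium the upper bounds, 1.77% for Ighv11-2 and 3.39% for Igkv14-126, lay below the interval of control replicate 2 but not below that of replicate 1. Ighv12-3 and Igkv4-91, another pair known for phosphatidylcholine binding, were looked at after the values were seen. Ighv12-3 took 0.156% and 0.148% of heavy counts in the controls and 0.324% (interval 0.162% to 0.580%) under VpR99. Igkv4-91 took 0.939% and 0.710% of kappa counts in the controls and 0.673% (0.412% to 1.04%) under VpR99, and both intervals overlap those of the controls.

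Lambda reads came from 3 segments. Iglv1 and Iglv2 match at 97.05% of their 305 V exon bases, with 9 differences, and Iglv3 matches Iglv1 at 55.86%. The last 120 bases are shown to make this visible: in Iglv1 and Iglv3 the capitals mark the cysteine codon, and in Iglv2 they mark the 4 bases that differ from Iglv1. The windows lie on the minus strand at chr16:19085017-19085136 (Iglv1), chr16:19260401-19260520 (Iglv2) and chr16:19241207-19241326 (Iglv3).
Iglv1: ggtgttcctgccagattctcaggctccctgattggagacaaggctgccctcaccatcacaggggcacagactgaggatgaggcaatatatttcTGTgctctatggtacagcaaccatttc
Iglv2: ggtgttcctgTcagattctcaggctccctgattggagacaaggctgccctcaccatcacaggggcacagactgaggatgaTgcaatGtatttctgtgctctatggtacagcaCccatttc
Iglv3: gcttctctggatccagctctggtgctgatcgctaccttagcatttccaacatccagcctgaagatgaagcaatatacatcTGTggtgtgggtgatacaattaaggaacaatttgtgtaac

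Iglv1 had 47.3 and 48.6 CPM in the controls and 0.11, 1.46, 5.96 and 0.664 CPM under VpR83, VpR99, VpR126 and VpR2020 media. It fell by 4.56 ± 1.11 (edgeR adjusted p = 0.018) with a log2 change of -5.82 without VpR126, and was not called without control replicate 1, control replicate 2 or a low-count filter (adjusted p = 0.082, 0.082 and 0.089, range 0.00010 to 0.089). Iglv3 differed between control replicate 1 (29.2 CPM) and replicate 2 (8.65 CPM), and had 0.22, 1.5, 2.66 and 0.498 CPM in the lines. It fell by 3.94 ± 0.91 (edgeR adjusted p = 0.016), with log2 fold changes of -4.55 without control replicate 2 and -2.82 without control replicate 1, where it was not called (adjusted p = 0.13, range 4.8e-05 to 0.13). Iglv2 had 12.7 and 9.82 CPM and 0.0366, 0.438, 1.35 and 0.166 CPM, a log2 change of -4.50 ± 0.97 (edgeR adjusted p = 0.013). Iglv2 had a log2 change of -5.41 without VpR126 and was not called without control replicate 1 or 2 (adjusted p = 0.074 and 0.060, range 2.4e-05 to 0.074).

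Iglv3 took 32.7% of lambda counts in control replicate 1 and 12.9% in replicate 2, and 44.2% of 419 counts under VpR99 and 26.7% of 236 under VpR126. Iglv1 took 53.0% and 72.5% in the controls, 43.0% under VpR99 and 59.7% under VpR126. Iglv2, near-identical to Iglv1, stayed between 12.9% and 14.6% in these 4 libraries. Lambda made up 17.2% and 14.1% of light chain V counts in the controls. It made up 7.46% under VpR83 (10 lambda counts, exact binomial 95% interval 3.64% to 13.3%), 12.4% under VpR99 (11.3% to 13.5%), 18.3% under VpR126 (16.2% to 20.5%) and 12.9% under VpR2020 (8.45% to 18.59%). The groups overlap in this share.

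Heavy segments gave a larger part of V reads in conditioned medium. They held 38.1% and 34.8% of V counts in the controls, and 49.2%, 50.02%, 45.5% and 52.7% under VpR83, VpR99, VpR126 and VpR2020 media. All 4 lines lay above both controls.

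Reads were spread more evenly over the heavy segments in 3 of the 4 conditioned libraries. The effective number of segments, the number of equally used segments that would give the same concentration (the inverse Simpson index), was 32.2 and 36.8 for heavy chains in the controls. It was 49.6 under VpR99, 48.5 under VpR126 and 48.7 under VpR2020, but 36.9 under VpR83, with 130 heavy counts. The 5 most used heavy segments held 31.3% and 25.9% of heavy counts in the controls, and 32.3%, 20.2%, 22.3% and 23.7% under VpR83, VpR99, VpR126 and VpR2020 media, so that VpR83 lay above both controls. For kappa the effective number was 34.0 and 28.8 in the controls and 35.1, 37.9, 36.5 and 37.4 in the lines. As point values the 4 lines all lay above both controls in kappa and in heavy chains, but no interval for counting error was made. Under VpR83 the gap to the higher control was smaller than the gap between the controls (36.9 against 36.8 for heavy, 35.1 against 34.0 for kappa). VpR83 and VpR2020 held only 124 to 207 counts in each of these classes, so that their place above the controls is a description only. In 130 heavy counts from each library, 50.6 and 52.2 segments would be seen in the controls and 54 to 56.2 in the lines, by the rarefaction formula.

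The ranking of segments by use stayed broadly alike between the controls, VpR99 and VpR126. Across the 91 heavy segments, the shares in the 2 controls had a Spearman rho of 0.858, and those in VpR99 and VpR126 one of 0.880. Shares of a control and of VpR99 or VpR126 had rho of 0.779 to 0.809. For the 86 kappa segments the same values were 0.895, 0.865, and 0.817 to 0.843. Pearson correlations of the shares themselves were 0.8, 0.884, and 0.678 to 0.818 for heavy segments, in the same order. For kappa segments they were 0.866, 0.933, and 0.665 to 0.747, so that kappa shares were less alike between the groups than within them. These are correlations across segments, which are not independent replicates, and segments share family sequence and the library. VpR83 and VpR2020, with 124 to 207 counts a class, are too sparse for this comparison.

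**Figure D3:**
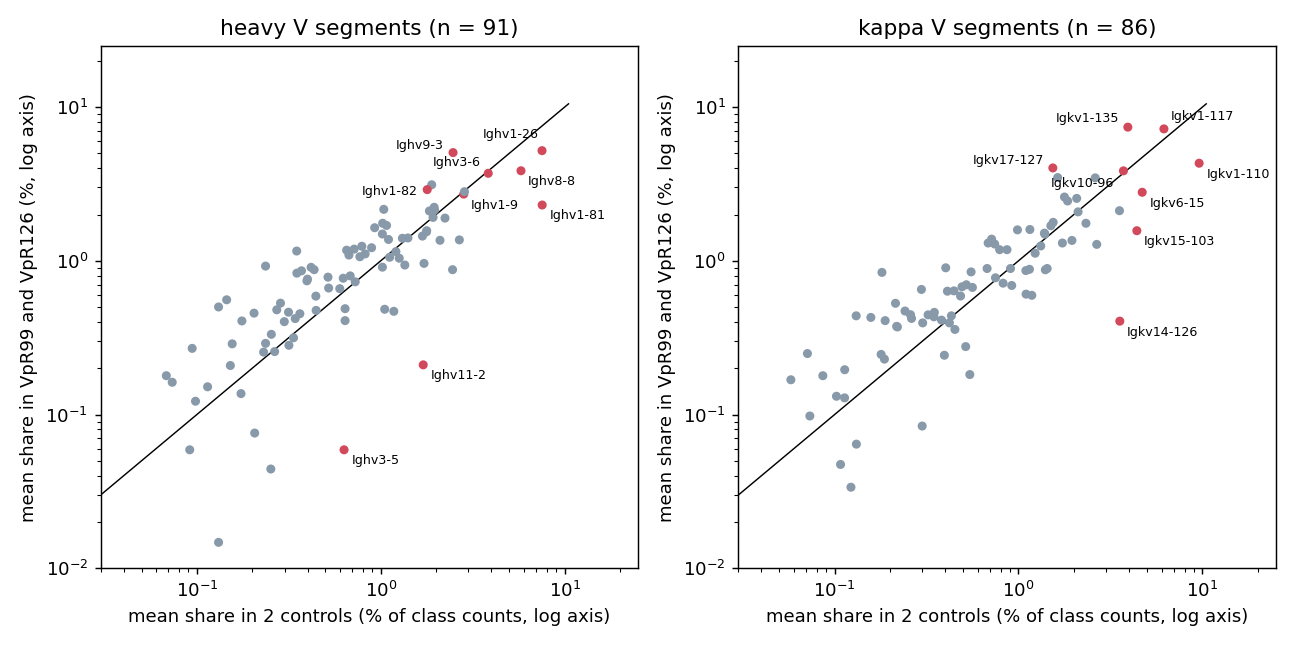
Share of class counts of each heavy (left) and kappa (right) V segment, as the mean over the 2 controls (x, log axis) against the mean over VpR99 and VpR126 (y, log axis), with the line of equal shares. Segments chosen by rule are red; most points follow the line, while Ighv11-2, Ighv3-5 and Igkv14-126 lie far below it.

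By family, Ighv1 held most heavy reads everywhere, from 52.9% to 60.8% of heavy counts over the 6 libraries. Of its 47 members, 39 were called lower, 1 was not called and 7 were not tested. The Ighv9 family held 3.50% and 2.70% of heavy counts in the controls, and 8.46%, 6.40%, 7.5% and 4.35% in the lines. Its intervals under VpR99 (5.60% to 7.27%), VpR126 (6% to 9.24%) and VpR83 (4.30% to 14.6%) lie above those of the controls. The Ighv8 family held 11.8% in control replicate 1, mostly Ighv8-8, and 3.85% to 6.94% in the other 5 libraries. Among kappa families, Igkv17 held 3.55% and 2.80% of kappa counts in the controls and 6.45%, 6.67%, 8.33% and 8.02% in the lines. Its interval under VpR83 (2.83% to 12.3%, from 8 counts) overlaps those of the controls. The intervals under VpR99 (5.80% to 7.62%), VpR126 (6.74% to 10.2%) and VpR2020 (4.34% to 13.3%, from 13 counts) lie above them. Igkv4, the largest kappa family with 25 members, had 20 called lower and 5 not tested. The families Ighv9, Ighv8 and Igkv17 were picked after their values were seen.

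Position along the locus was compared by dividing the members into 3 parts by distance from the constant region gene. The 30 heavy segments farthest from Ighm, 1725 to 2580 kb away, held 40.5% and 40.4% of heavy counts in the controls. They held 33.4% under VpR99 (exact binomial 95% interval 31.8% to 35.0%) and 34.4% under VpR126 (31.5% to 37.3%), both below the controls. The shares of 33.1% under VpR83 and 38.6% under VpR2020 have wider intervals (25.1% to 41.9% and 32.0% to 45.6%) that both reach the controls. This farthest part includes Ighv8-8 (9.24% and 2.35% of heavy counts in the controls) and Ighv1-81 (6.42% and 8.68%), both described above. How much of the difference rests on these segments, rather than on position, was not tested. The 31 nearest heavy segments held 27.7% and 27.0% in the controls and 27.1% to 32.5% in the lines. For kappa, the 29 segments nearest to Igkc held 37.0% and 33.7% in the controls and 29.8% to 32.4% in the lines, and the 28 farthest held 45.8% and 50.7% against 47.6% to 50.8%.

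Pseudogene segments gave few reads. Of 130 rows annotated as V pseudogenes, 7 met the count rule, against 173 of 216 functional V genes. The pseudogene rows together held 0.935% and 1.26% of V counts in the controls and 4.41%, 2.59%, 1.74% and 2.5% in the lines. The shares under VpR83 and VpR2020 rest on few reads, 10 heavy and 2 kappa counts under VpR83 and 9 heavy and 1 kappa count under VpR2020. Most pseudogene members had few counts, with a median sum of 37 over the 6 libraries against 163 for functional members. Ighv1-41, named after its values were seen, had the most, 75 and 77 counts in the controls and 6, 62, 10 and 6 in the lines.

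Many segments have close copies, which bears on how reads were assigned. Of the 91 heavy members, 49 had another annotated V exon with at least 95% identity, as did 45 of the 86 kappa members, and none had an identical one. The closest V exons to Ighv1-26 and Ighv11-2 are Ighv1-18 (97.38% identity) and Ighv11-1 (98.70%). Igkv1-110 and Igkv1-117 match at 96.81%, as their windows above show. The median log2 fold change of heavy segments was -3.53 with such a copy and -3.22 without one, and of kappa segments -3.94 and -4.20. How the counting treated reads that fit several segments is not stated by any source read here.

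The 2 controls differed from each other in segment use by more than counting error. The exact 95% intervals of the share did not overlap for 56 of the 180 members, of which 24 were higher in replicate 1 and 32 in replicate 2. No like figure for other genes is given here, so this difference is not shown to be particular to V segments. The largest ratios towards replicate 1, chosen after the values were seen, were those of Ighv3-5 (7.55-fold higher share in replicate 1), Igkv12-89 (6.35-fold, with 319 and 34 counts) and Igkv6-13 (5.33-fold, with 118 and 15 counts). Towards replicate 2, Ighv8-6 had 5 and 16 counts and Ighv1-61 had 20 and 58 counts in replicates 1 and 2. Such differences between the libraries of 1 group limit what can be read from a single segment.

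Constant region genes fell as well. Of 12 listed, 11 were tested and all 11 were called lower (median log2 fold change -5.09), with Ighe too low to test. Ighm, the constant gene of IgM, fell from 1752 and 1799 CPM in the controls to 149.4, 250.6, 431.5 and 193.8 CPM in the lines, by 2.79 ± 0.40 (edgeR adjusted p = 0.0033). Igha, of the secreted and mucosal isotype IgA, fell from 726.1 and 513.4 CPM to 1.10, 4.57, 6.89 and 1.16 CPM, a log2 change of -7.48 ± 0.81 (edgeR adjusted p = 0.0015). Igkc, the kappa constant gene, fell by 4.62 ± 0.82, with a log2 change of -5.27 without VpR126. Ighm made up 64.3% and 69.5% of heavy constant counts in the controls and 93.8% to 98.1% in the lines, while Igha made up 26.6% and 19.8% against 0.586% to 1.71%. These are shares of constant gene reads, not of transcripts known to carry a V segment. Without control replicate 1 or 2, 6 and 7 constant genes were called.

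Set against the constant region, heavy V reads were fewer in conditioned medium when Ighm was the reference, and kappa V reads were slightly more. Heavy V counts were 15.4% and 12.4% of the sum of heavy V and Ighm counts in the controls. The shares were 3.09% under VpR83, 9.89% under VpR99, 9.56% under VpR126 and 5.58% under VpR2020, all below both controls. With all heavy constant genes in the sum the controls had 10.49% and 8.95%, VpR99 9.33% and VpR126 9.02%, so that the groups overlapped, while VpR83 and VpR2020 stayed at 3.03% and 5.46%. Kappa V counts were 30.0% and 29.9% of kappa V plus Igkc counts in the controls, and 34.7%, 33.4%, 34.7% and 32.6% in the lines. The intervals of VpR83 (29.8% to 39.9%) and VpR2020 (28.5% to 36.9%) overlapped those of the controls, and those of VpR99 and VpR126 lay above them. Lambda V counts were 35.7% and 32.9% of lambda V plus Iglc1 to Iglc3 counts in the controls. They were 32.3% under VpR83 (exact binomial 95% interval 16.7% to 51.4%), 47.0% under VpR99 (43.7% to 50.3%), 39.1% under VpR126 (35.2% to 43.1%) and 39.3% under VpR2020 (27.1% to 52.7%), so that only the interval of VpR99 lay clear of both controls.

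**Figure D4:**
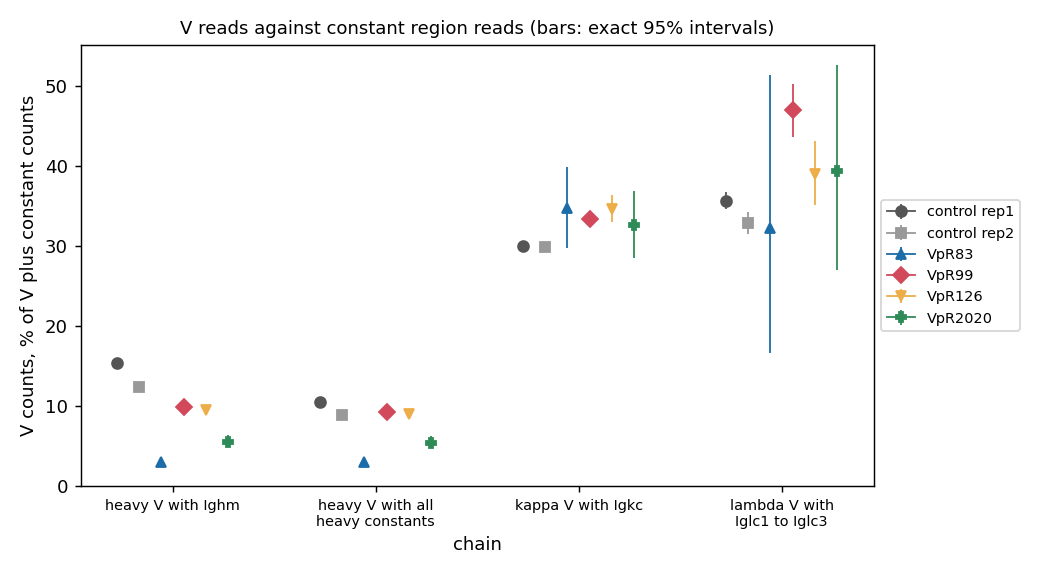
V counts as a percent of V plus constant region counts (y), for each chain and library, with exact binomial 95% intervals that cover counting error only. Heavy V with Ighm lies at 12.4% to 15.4% in the controls and 3.09% to 9.89% in the lines, while kappa V with Igkc lies at 29.9% to 34.7% in all 6 libraries.

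Other B lineage genes were called lower in part. Of 10 precursor genes 8 were called lower and 2 were not called (median -2.99). Cd79a, of the signalling part of the B cell receptor, had 258.8 and 331.5 CPM in the controls and 6.41, 37.2, 67.1 and 13.4 CPM in the lines, the same order of lines as the V segments. Cd79a fell by 3.25 ± 0.82 (edgeR adjusted p = 0.021) with a log2 change of -3.93 without VpR126, and was not called without control replicate 1 or 2, where 3 precursor genes were called. Vpreb1, named after its values were seen and part of the surrogate light chain that precursors use before light chain joining, fell from 32.3 and 34.0 CPM to 0.293, 1.80, 1.06 and 0.609 CPM, a log2 change of -5.06 ± 0.60 (-5.66 without VpR99). Of 10 mature B cell genes 5 were called lower and 5 were not called (median -2.30). Their number called was 3 without either control and 10 without VpR126. The antigen presentation gene Cd74, which macrophages also express, had 739.6 and 783 CPM in the controls and 297.4 to 1050 CPM in the lines and was not called, except without VpR126, where its log2 fold change was -1.14.

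Plasma cell genes split. Of 10 listed, 4 were called lower (Jchain, Mzb1, Derl3 and Irf4), 2 higher (Prdm1 and Xbp1) and 4 were not called (median -1.14). Jchain, which links IgA and IgM into polymers, had 225.6 and 151.9 CPM in the controls and 0.366, 0.722, 2.11 and 0.221 CPM in the lines. It fell by 7.79 ± 0.75 (edgeR adjusted p = 0.0011), with a log2 change of -8.50 without VpR126. Mzb1, a chaperone gene of antibody-secreting cells, fell by 3.50 ± 0.57. Xbp1, a secretory pathway factor that other cells also express, rose by 0.81 ± 0.20, and Prdm1, the plasma cell factor Blimp-1, which macrophages also express, by 3.17 ± 0.75. Without control replicate 1 or 2, neither Xbp1, Prdm1, Irf4 nor Derl3 was called. Irf4 was not called without VpR83, VpR99 or VpR2020 either, and its log2 fold change was -0.95 without control replicate 1, and that of Prdm1 was then 4.02.

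The listed recombination and joining genes did not move together, and what part of their reads came from B lineage cells was not tested. Of 10 recombination and joining genes, 5 were called lower (Dntt, Xrcc5, Xrcc6, Lig4 and Nhej1), 1 higher (Dclre1c) and 4 were not called (median -0.95). Dntt, the polymerase that adds bases at heavy chain joints, had 55.9 and 75.2 CPM in the controls and 0.549, 1.22, 0.760 and 0.775 CPM in the lines. It fell by 6.25 ± 0.33 (edgeR adjusted p = 0.00019). Rag1, of the recombinase that cuts at V segments, had 45.4 and 61.1 CPM in the controls and 6.04, 28.1, 54.5 and 13.1 CPM in the lines. The groups of Rag1 overlapped, and it was not called (-1.07 ± 0.76, edgeR adjusted p = 0.29). Rag2, named after its values were seen, had 3.80 and 7.94 CPM in the controls and 0.366, 2.03, 2.70 and 1.11 CPM in the lines. It was not called (-1.91 ± 0.72, edgeR adjusted p = 0.072), except without VpR126, where its log2 fold change was -2.25 (edgeR adjusted p = 0.045). Without control replicate 1 or 2, 2 genes of the list were called lower and 0 higher, and without VpR83 3 were called lower. Of the 3 factors that bind V promoters, Pou2af1, a coactivator specific to B cells, fell by 2.46 ± 0.68, Pou2f1 rose by 0.52 ± 0.14 and Pou2f2 was not called. Neither call held without either control or without VpR2020, and that of Pou2f1 was also lost without VpR83. Pou2f2 was called higher without VpR126.

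Markers of other cells moved in the same comparison. All 8 macrophage markers were called higher, with summed levels of 470.0 and 456.3 CPM in the controls and 5842 to 15450 CPM in the lines. Of 8 erythroid markers all 8 were called lower, with summed levels of 4579 and 2031 CPM in the controls and 0.292 to 5.03 CPM in the lines, and Slc4a1 and Car1 were at 0 in all 4 lines. Of 8 neutrophil markers 7 were called lower (84977 and 77257 CPM against 2872 to 15538 CPM). Of 8 T cell markers 7 were called lower, and Cd28 was called higher. The summed level of the T cell markers was 62.7 and 67.1 CPM in the controls and 130 to 251 CPM in the lines, of which Cd28 made up 5.97 and 3.57 CPM and 125 to 249 CPM. Without control replicate 1 or 2, 6 macrophage, 7 erythroid, 6 T cell (lower) and 4 and 5 neutrophil markers were called. The part of these shifts in the V segment results was not tested.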

How the data were processed

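For 6 bone marrow libraries, made with a stranded Illumina kit per the labels' protocols, the authors deposited unnormalized read counts, 1 row for each Ensembl identifier. The submitters' processing notes list Trimmomatic 0.38, STAR 2.5.2b and GRCm38. How reads were counted, with which strand setting and with what rule for reads that fit several genes, is not given in the sources used here. Symbols and coordinates came from GENCODE M21, which matched 45143 identifiers. The whole table was fitted in R 4.3.3 with edgeR 4.0.16 (filterByExpr defaults, TMM scaling, robust quasi-likelihood test, group as the only term, two-sided, Benjamini-Hochberg adjustment). The SE of a log2 fold change is its size divided by the square root of the F statistic. Scripts were tested on simulated data.

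Shares carry exact Clopper-Pearson 95% intervals. Intervals and limits cover counting error only. Alternatives were RLE, upper-quartile and library-total scaling, DESeq2 1.42.0, voom of limma 3.58.1, no low-count filter, VpR99 thinned to 25714176 counts, and each library left out. Named segments were, by rule, those highest in each group and class (5 heavy, 5 kappa, 3 lambda), the top segment of each library and the 3 largest falls. Members, lists and rules were chosen with earlier results of these data known. A planned search of V promoters for the octamer motif was not run.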

Additional observations from a re-analysis of the deposited data

Results flagged for a closer look

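Of 26 values checked among the 4 conditioned libraries (20 named segments and the summed level and effective number of each class), 2 had 1 library standing apart by Dixon's test at the 95% level, which chance alone flags in about 1 of 20 groups. The effective number of heavy segments was 36.9 under VpR83 medium, below the 48.5 to 49.6 of the other lines, in a library with 130 heavy V counts. The level of Ighv3-5 was 0.0324 CPM under VpR99 medium, from 4 counts, with 0 counts in the other 3 lines, where that level corresponds to less than 1 count.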

How the results depend on the processing

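No paired analysis was possible because the conditioned libraries carry no replicate numbers in the labels. The number of members called lower was 126 to 161 when 1 conditioned library was left out, and 48 and 60 without control replicate 1 and control replicate 2, so the range over all libraries left out was 48 to 161. None was called higher in any fit. Over all genes, 918 and 991 were called lower and 1283 and 1299 higher without control replicate 1 and 2. Over every library left out in turn the ranges were 918 to 3374 genes lower and 1283 to 3657 higher. With other scalings, DESeq2, voom, no low-count filter or VpR99 thinned, 152 to 160 members were called lower, and 148 to 155 of the 155 calls were among them. Upper-quartile and library-total scaling moved the all-gene median (log2 scale) from -0.01 to -0.22 and -0.26, and that of the tested members from -3.74 to -3.95 and -3.98. On library totals the control mean of kappa levels was 469 CPM in place of 419.9. With every kappa row counted, the effective number of kappa segments in conditioned medium was 38.2 in place of 36.7. A threshold of 10 or 50 counts, or the sum without VpR99, gave 202, 151 or 170 members. The number of V reads limits VpR83 and VpR2020 most, where 72 and 53 members had 0 counts, although VpR83 had more counts in total than either control. Leaving out libraries for the class sums, the effective numbers and the listed genes was chosen after seeing the data.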
